A study of Homo sapiens with 29 samples.

Results

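The genes described here are 10 that serve protein folding and protein disposal in the endoplasmic reticulum (ER). They are the chaperones HSPA5 and HSP90B1, the co-chaperones DNAJB9 and DNAJC3, the disulfide isomerases PDIA4 and PDIA6, the degradation genes HERPUD1, SEL1L and EDEM1, and the transcription factor XBP1. Every probe set with 1 of these symbols in the array's annotation was taken, which gave 26 of the 54675 probe sets of the array. Of the 26, 24 passed the level filter, a mean over all arrays of at least 37.41 in intensity, and were tested. The samples were cultures of BEAS-2B, an immortalised human bronchial epithelial cell line, exposed for 24 h to N-OH-PhIP at 1 of 9 doses (0.1, 0.5, 1, 5, 10, 50, 100, 500 or 1000 nM) or to the solvent DMSO alone. N-OH-PhIP is the N-hydroxylated form of PhIP, a carcinogen of fried meat and tobacco smoke. All cultures, the DMSO cultures included, held DMSO at 1%, stood at about 70% confluence at exposure and grew without serum. The doses are those of the sample titles, while the design text of the series gives 0.5 nM as its lowest dose, so the labels conflict over the arrays titled 0.1 nM. The series holds 29 arrays in 10 groups, 3 in each except 0.5 nM with 2 (replicates 1 and 3), and per the labels the series asks for the lowest dose with a transcriptional effect. The labels describe triplicate cultures of this single line.

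Secretory and membrane proteins fold in the ER, where HSPA5 (BiP) and HSP90B1 (GRP94) hold unfolded chains and PDIA4 and PDIA6 make and rearrange disulfide bonds. Chains that fail to fold are sent back to the cytosol and destroyed by the proteasome, a route called ER-associated degradation, in which SEL1L and HERPUD1 work with the ubiquitin ligase HRD1. When unfolded chains accumulate, the sensors IRE1, PERK and ATF6 start the unfolded protein response, and the factors they activate, spliced XBP1 among them, switch on most of the genes described here.

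The promoter sequences are shown because several of these genes carry a known element of that response in front of their transcription start. All 10 genes were matched to the RefSeq promoter table (build GRCh38.p14), which gave 13 windows of 300 bases, since PDIA4, PDIA6 and XBP1 have more than 1 annotated start. Exact matches on either strand were searched for the ER stress response element (ERSE, CCAAT and CCACG held apart by 9 bases of any kind), its shorter form ERSE-II (ATTGG and CCACG held apart by 1 base), the UPRE (TGACGTGG) and the C/EBP-ATF element (TGATGNAA), with overlapping matches all kept. The ERSE was found for 4 of the 10 genes, in 4 of their 13 windows. Over all genes, these included, it was in 27 of 35116 windows (0.0769%). It began 66 bases upstream of the start of HSPA5, 194 and 89 bases upstream for HSP90B1 (the nearer one on the opposite strand), 86 bases for PDIA6 and 52 bases for XBP1. ERSE-II was found 117 bases upstream of HERPUD1 and in 19 windows of all genes (0.0541%). HERPUD1 also held the C/EBP-ATF element on the opposite strand, 176 bases upstream, a short motif found in 3.62% of all windows. The UPRE was in 0 of the 13 windows and in 0.729% of all windows. A match describes the letters only and no binding was measured. Most of the 10 genes were already known as genes of this response, and the elements as its elements. The shares are therefore a description and no test of enrichment. In the 200 bases upstream of each start, printed 5′ to 3′ on the strand of the gene, capitals mark these matches.
HSPA5, chr9:125241344-125241543, minus strand: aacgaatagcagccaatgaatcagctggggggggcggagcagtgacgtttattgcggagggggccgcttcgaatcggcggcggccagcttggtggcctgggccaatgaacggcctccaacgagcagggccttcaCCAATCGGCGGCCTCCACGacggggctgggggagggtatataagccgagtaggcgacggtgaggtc
HSP90B1, chr12:103930210-103930409, plus strand: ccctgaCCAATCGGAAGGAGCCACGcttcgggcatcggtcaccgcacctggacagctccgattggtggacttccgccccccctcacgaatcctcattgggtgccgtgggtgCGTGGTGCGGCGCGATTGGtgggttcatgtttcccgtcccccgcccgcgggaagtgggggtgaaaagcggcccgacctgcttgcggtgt
HERPUD1, chr16:56931942-56932141, plus strand: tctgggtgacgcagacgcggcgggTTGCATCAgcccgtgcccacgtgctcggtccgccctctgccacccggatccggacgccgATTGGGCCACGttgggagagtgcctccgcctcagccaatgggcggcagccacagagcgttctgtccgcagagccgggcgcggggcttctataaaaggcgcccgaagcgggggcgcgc
PDIA6, the downstream annotated start, chr2:10812786-10812985, minus strand: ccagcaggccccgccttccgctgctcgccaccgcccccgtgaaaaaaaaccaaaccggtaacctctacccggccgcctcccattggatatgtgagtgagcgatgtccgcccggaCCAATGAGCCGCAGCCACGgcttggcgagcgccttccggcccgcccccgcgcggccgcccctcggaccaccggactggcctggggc
XBP1, the upstream annotated start, chr22:28800570-28800769, minus strand: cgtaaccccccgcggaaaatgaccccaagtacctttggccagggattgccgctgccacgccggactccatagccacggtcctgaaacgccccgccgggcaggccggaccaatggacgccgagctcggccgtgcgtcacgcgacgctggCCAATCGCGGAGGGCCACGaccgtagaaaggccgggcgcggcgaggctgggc

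**Figure D1:**
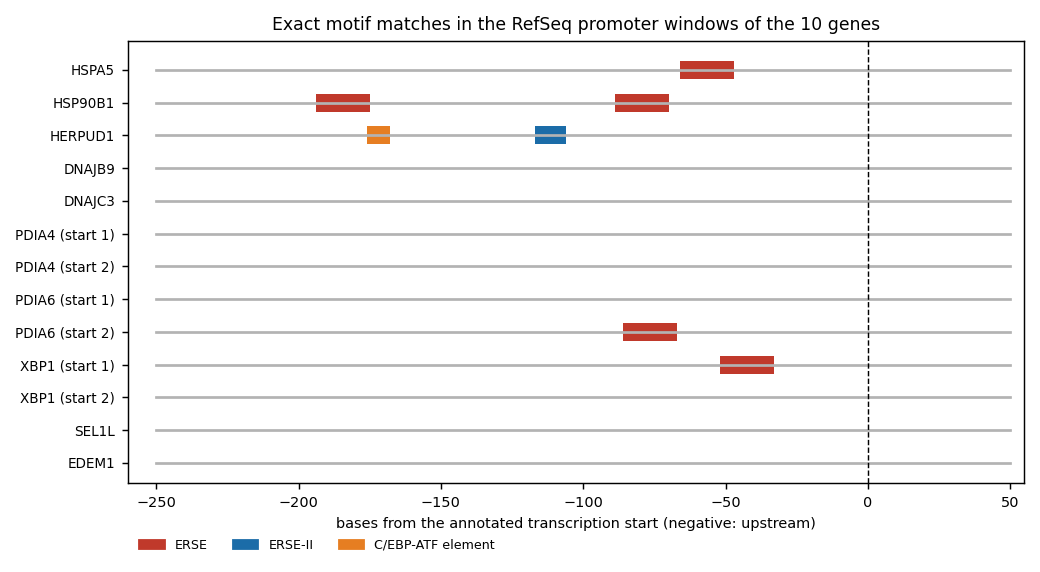
Exact motif matches in the 13 promoter windows of the 10 genes, drawn to scale against the distance in bases from the annotated start. Boxes mark ERSE, ERSE-II and C/EBP-ATF matches, and 5 genes (HSPA5, HSP90B1, HERPUD1, PDIA6 and XBP1) hold at least 1.

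Deposited values were linear intensities per probe set, and how they were normalised is not stated. They were compared as log2(intensity + 16), so changes of dim probe sets are understated. Intensities of different probe sets cannot be set against each other, since probes differ in brightness. In the fit of a mean for each group (limma, p-values adjusted with Benjamini-Hochberg over 27307 probe sets, threshold 0.05), each dose was set against the same 3 DMSO arrays, so a deviation of those arrays enters every dose. The lowest array median was 35.77 and the highest 38.44, and replicates of a dose had pairwise correlations between 0.9798 and 0.9981 over tested probe sets. The lowest mean correlations with the other arrays of the group were those of 500 nM replicate 3 (0.9846), 500 nM replicate 2 (0.9858), 500 nM replicate 1 (0.9905), DMSO replicate 1 (0.9908) and 5 nM replicate 3 (0.9912). The actin 3′ to 5′ log2 ratio, a measure of RNA integrity and amplification length, was 2.21 ± 0.0741 in DMSO (SD, n = 3), lay between 2.16 and 2.52 in group mean from 0.1 to 100 nM, and was 1.67 ± 0.201 at 500 nM and 1.52 ± 0.0367 at 1000 nM. All 7 epithelial markers passed the level filter, while the 2 leukocyte and 3 endothelial markers on the array did not. Of 4 fibroblast markers COL1A1 passed it and COL1A2, PDGFRA and DCN did not, and of 4 markers of differentiated airway cells MUC5AC did. Of the 7 epithelial markers 5, all keratins, rose at 500 nM (limma, median log2 change 0.543), and 4 rose and 1 fell at 1000 nM (median 0.342). Over all tested probe sets 23.1% rose at 500 nM, and 28.9% rose and 31% fell at 1000 nM. KRT8, a keratin of simple epithelia, averaged 1368 at 500 nM and 1370.5 at 1000 nM, against 488 in DMSO. COL1A1, a collagen chain, averaged 1015 at 500 nM and 791 at 1000 nM, against 601 in DMSO, and rose at both doses (0.74, adjusted p = 1.1e-06, and 0.39, adjusted p = 0.0016). These markers moved at the same doses as the ER genes described next, and their part in those changes was not tested. In bulk RNA of a culture, fewer cells with a transcript and less transcript per cell cannot be told apart.

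The ER genes fell together at 500 nM, and most were nearer to DMSO at 1000 nM. At 500 nM, 18 of the 24 tested probe sets fell and 0 rose, beside 22.3% of all tested probe sets that fell and 23.1% that rose (limma). In the brightest probe set of each gene, 8 of the 10 genes fell, from HERPUD1 at a log2 change of -0.85 to HSPA5 at -0.14, while HSP90B1 (-0.11) and EDEM1 (0.07) did not pass the test. At an unadjusted p under 0.05 there were 19 member probe sets, all of them lower at 500 nM than in DMSO, beside 52.1% of all tested probe sets in either direction. The median log2 change was -0.305 over the 24 probe sets, against 0.00859 over all tested probe sets. Of the 24, 19 lay below every DMSO array in each 500 nM array, a pattern held by 21.4% of all tested probe sets. Changes were mostly small, and only the brightest probe sets of HERPUD1 and XBP1 fell by at least 1.5-fold, as 5.91% of all tested probe sets did.

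At 1000 nM, 9 of the 24 probe sets fell and 2 rose (limma), beside 31% and 28.9% of all tested probe sets. Both counts together, 11 of 24, compare with 59.9% called over the array, so the share of ER probe sets called at this dose was not above that of the array. Their median log2 change was -0.0812, against -0.00648 over all tested probe sets. Of the 24, 11 lay below every DMSO array in each 1000 nM array and 4 lay above, beside 33.3% and 31.8% of all tested probe sets. Of the 10 genes, HERPUD1, SEL1L, XBP1, DNAJC3, PDIA4 and PDIA6 fell in their brightest probe set. The 3′ to 5′ ratio of actin was low at both of these doses, and the ratio of GAPDH was not (means of 0.145 in DMSO, 0.196 with 500 nM and 0.171 with 1000 nM). With the mean of both ratios as a covariate in the fit, 17 of the 24 fell and 0 rose at 500 nM, while at 1000 nM 7 fell and 1 rose. The ratio moved with the dose groups, so its share in a change and that of the dose cannot be told apart. Without 500 nM replicate 3 and 5 nM replicate 3 together, 20 fell at 500 nM, and at 1000 nM 10 fell and 2 rose. Without DMSO replicate 1 alone, 19 fell at 500 nM, and at 1000 nM 8 fell and 2 rose, and without 500 nM replicate 2 alone 18 fell and 1 rose at 500 nM. Against the 0.1, 0.5 and 1 nM arrays in place of DMSO, 14 fell and 0 rose at 500 nM, and 11 fell and 7 rose at 1000 nM. With each array centred on its median, 5 fell at 1000 nM.

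**Figure D2:**
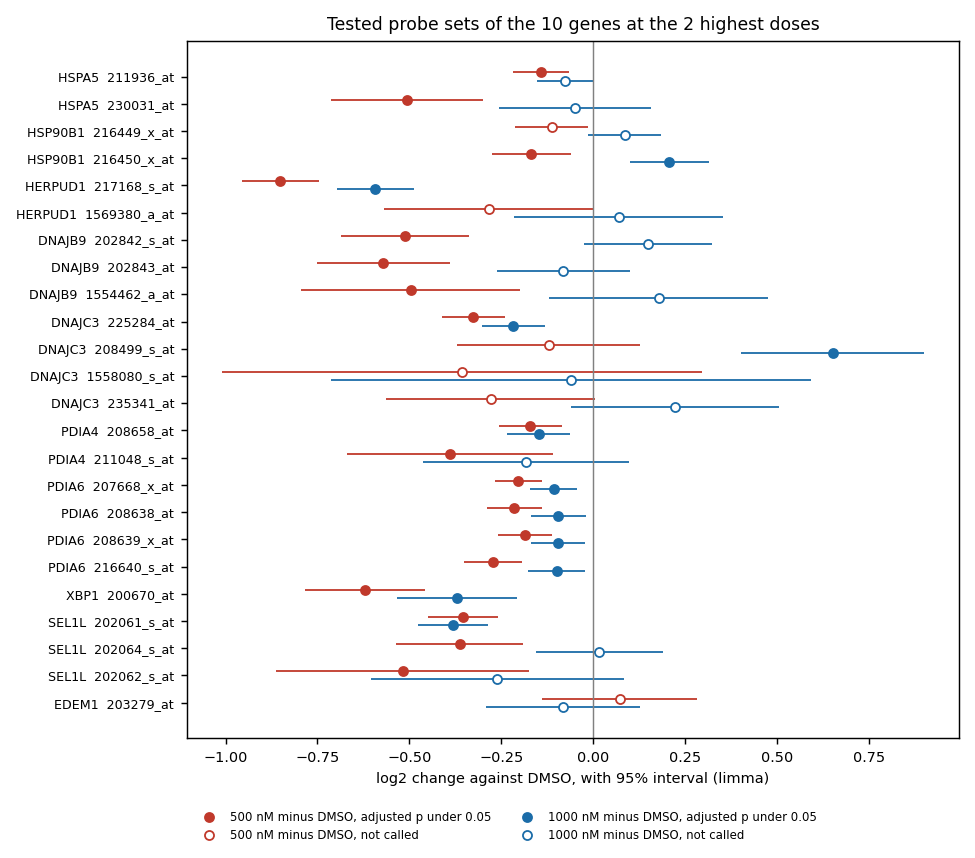
Log2 change against DMSO of the 24 tested probe sets, with 95% intervals from limma, at 500 nM (red) and 1000 nM (blue). Filled points passed the adjusted threshold. The red points lie left of 0 except EDEM1, and each blue point lies to the right of the red point of the same probe set except for SEL1L 202061_s_at and EDEM1.

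HSPA5, the main chaperone of the ER lumen and the one whose release from the sensors accompanies their activation, fell slightly at 500 nM. Its brightest probe set (211936_at) read 6951, 7457 and 7195 in the 500 nM arrays, against 8053, 7618 and 8152 in the DMSO arrays. All 500 nM arrays lay below all DMSO arrays, and the log2 change was -0.14 ± 0.04 (SE, adjusted p = 0.0029). At 1000 nM the arrays read 7790, 7382 and 7403 and overlapped with DMSO, for a log2 change of -0.08 ± 0.04 (adjusted p = 0.075). With the 3′ to 5′ covariate the changes were -0.06 at 500 nM (adjusted p = 0.43) and 0.03 at 1000 nM (adjusted p = 0.74), so with that ratio in the fit HSPA5 passed the test at neither dose. The change at 1000 nM passed it when 1000 nM replicate 1 (-0.10, adjusted p = 0.036) or DMSO replicate 2 (-0.11, adjusted p = 0.026) was left out, with quantile normalization (-0.11, adjusted p = 0.007), and against the 0.1, 0.5 and 1 nM arrays (-0.14, adjusted p = 2e-04). The dimmer HSPA5 probe set (230031_at) moved further at 500 nM, with 604, 680 and 726 against 922, 914 and 1037 in DMSO (-0.51 ± 0.10, adjusted p = 0.00018). Its 1000 nM arrays spread widely around DMSO, at 1125, 791 and 883 (-0.05, adjusted p = 0.69). HSPA5 lies at chr9:125234853-125241343 in GRCh38.p14.

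HSP90B1, the HSP90 chaperone of the ER, was measured by 2 probe sets whose names mark probes shared with other transcripts (216449_x_at and 216450_x_at), so a share of their signal may come from related HSP90 sequences. A further 2 probe sets carry HSP90B1 together with a microRNA symbol and were not taken. The brighter probe set read 2492, 2672 and 2468 at 500 nM and 3016, 2940 and 2811 at 1000 nM, against 2798, 2679 and 2775 in DMSO. Neither dose passed the test in this probe set (-0.11, adjusted p = 0.059, and 0.09, adjusted p = 0.13). The value at 500 nM passed it without 500 nM replicate 2 (-0.15, adjusted p = 0.022) or 5 nM replicate 3 (-0.11, adjusted p = 0.046), with quantile normalization (-0.13, adjusted p = 0.028) with median centring (-0.13, adjusted p = 0.036) and with the replicate number as a block (-0.11, adjusted p = 0.03). Against the 0.1, 0.5 and 1 nM arrays in place of DMSO it was -0.01 at 500 nM (adjusted p = 0.78) and 0.18 at 1000 nM, which passed the test (adjusted p = 0.00024). The dimmer probe set fell at 500 nM (-0.17 ± 0.05, adjusted p = 0.01) and rose at 1000 nM (0.21 ± 0.05, adjusted p = 0.0013), with every 1000 nM array (2119, 2024 and 2085) above every DMSO array (1741, 1876 and 1774). With the covariate, the brighter probe set stood at -0.03 at 500 nM (adjusted p = 0.82) and 0.21 at 1000 nM (adjusted p = 0.076). At 5 nM both HSP90B1 probe sets fell (-0.21 and -0.30, adjusted p = 0.026 and 0.0038). In the brighter one the 5 nM arrays averaged 2370 ± 135 and the DMSO arrays 2751 ± 63.2 (SD, n = 3 each).

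DNAJB9 (ERdj4), a J-domain co-chaperone that delivers misfolded proteins to HSPA5, had the widest swing between the 2 highest doses among the brightest probe sets. Probe set 202842_s_at read 1423, 1567 and 1690 at 500 nM and 2633, 2227 and 2577 at 1000 nM, against 2338, 2255 and 2095 in DMSO. Every 500 nM array was below, and the 1000 nM arrays overlapped with, the DMSO arrays. The fall at 500 nM was -0.51 ± 0.08 (adjusted p = 1.8e-05), and the change at 1000 nM was 0.15 ± 0.08 (adjusted p = 0.13). Without 1000 nM replicate 2, the lowest of its group, the change at 1000 nM was 0.22 (adjusted p = 0.038), and against the 0.1, 0.5 and 1 nM arrays it was 0.29 (adjusted p = 0.00067). The other 2 DNAJB9 probe sets also fell at 500 nM, with log2 changes of -0.57 (202843_at) and -0.50 (1554462_a_at), and did not pass the test at 1000 nM. Below 500 nM the brightest probe set was under DMSO in mean at each of the 7 doses, with log2 changes between -0.09 (0.1 nM) and -0.35 (50 nM) and adjusted p-values of 0.082 or more.

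DNAJC3 (p58IPK), another J-domain partner of HSPA5, fell at both doses in its brightest probe set. Probe set 225284_at read 3691, 3474 and 3943 at 500 nM and 4008, 3932 and 4028 at 1000 nM, against 4714, 4546 and 4660.0 in DMSO, with no overlap between either dose and DMSO. The log2 changes were -0.33 ± 0.04 (adjusted p = 3.9e-07) and -0.22 ± 0.04 (adjusted p = 6.3e-05). A dimmer probe set of DNAJC3 (208499_s_at) went the other way at 1000 nM, with 441, 386 and 407 against 226, 292 and 252 in DMSO, a rise of 0.65 ± 0.12 (adjusted p = 4.5e-05). The remaining 2 did not pass the test at either dose. In 1 of them, 1558080_s_at, 2 arrays read 391 (5 nM replicate 3) and 281 (500 nM replicate 3), against 59.1 to 164 in the other 27 arrays. Some other members also spread widely at these doses. EDEM1 had an SD of 281 at 5 nM and 473 at 500 nM, against 56.5 in DMSO. DNAJB9 1554462_a_at had 178 and 251, against 6.19, while PDIA6 207668_x_at had 74.3 and 141, against 98.6.

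PDIA4 (ERp72) and PDIA6 (P5), protein disulfide isomerases, fell at 500 nM in all 6 of their probe sets, by small amounts except in PDIA4 211048_s_at. That dimmer probe set averaged 624 ± 185 at 500 nM, with arrays from 411 to 743, against 796 ± 46.4 in DMSO (SD, n = 3 each). The brightest probe set of PDIA6 (207668_x_at) read 3692, 3956 and 3909 at 500 nM and 4068, 4119 and 4158 at 1000 nM, against 4524, 4453 and 4330.0 in DMSO. Neither dose overlapped with DMSO, and the log2 changes were -0.20 ± 0.03 (adjusted p = 6.3e-06) and -0.11 ± 0.03 (adjusted p = 0.0041; 0.061 with median centring). All 4 PDIA6 probe sets fell at both doses, by 0.18 to 0.27 on the log2 scale at 500 nM and by 0.10 to 0.11 at 1000 nM. Of these, 207668_x_at and 208639_x_at carry the same name mark as the HSP90B1 probe sets, for probes shared with other transcripts. PDIA4 (208658_at) averaged 5748 ± 304 at 500 nM and 5833 ± 169 at 1000 nM, against 6465 ± 147 in DMSO (SD, n = 3 each). Its log2 changes were -0.17 ± 0.04 (adjusted p = 0.0015) and -0.15 ± 0.04 (adjusted p = 0.0033). With the covariate the PDIA6 fall stayed past the threshold at 500 nM (-0.16, adjusted p = 0.014) and not at 1000 nM (-0.05, adjusted p = 0.58), and PDIA4 did the same (-0.19, adjusted p = 0.032, and -0.17, adjusted p = 0.1).

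HERPUD1, a ubiquitin-like membrane protein that organises the HRD1 complex, had the largest change of the 10 genes and was the only gene of the 10 called below 5 nM. In its brightest probe set (217168_s_at) the DMSO arrays read 2881, 3216 and 3146, the 20 arrays at 0.1 to 100 nM ran from 2253 to 2782 with a median of 2441, the 500 nM arrays read 1577, 1726 and 1803, and the 1000 nM arrays read 2095, 1920.0 and 2099. The levels thus formed 3 steps that did not overlap with DMSO. All 20 arrays of the 7 lower doses were below it, the 1000 nM arrays below those, and the 500 nM arrays lowest. Some other member probe sets came close at the 7 lower doses. SEL1L 202064_s_at had 19 of the 20 arrays below every DMSO array, SEL1L 202062_s_at and HSP90B1 216450_x_at 18 each, and DNAJB9 202842_s_at 17. SEL1L 202061_s_at had 1 and DNAJC3 235341_at 0. The share of all tested probe sets with this pattern was not counted, so the steps are not shown to be particular to HERPUD1. At single doses, all arrays lay below DMSO in 8.19% (50 nM) to 16.5% (0.5 nM) of all tested probe sets. Each of these counts rests on the same 3 DMSO arrays, so a deviation of DMSO would enter all of them. At 500 nM the fall of HERPUD1 was -0.85 ± 0.05 (adjusted p = 5.8e-13), a level of 0.555 times DMSO. At 1000 nM it was -0.59 ± 0.05 (adjusted p = 2.2e-10). With the covariate the values were -0.89 (adjusted p = 1e-08) and -0.65 (adjusted p = 1.8e-05), as large as without it. HERPUD1 is the gene with ERSE-II printed above, and lies at chr16:56932142-56944864.

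At the lower doses HERPUD1 was lower than in DMSO by a similar amount at each dose. At 0.1, 0.5, 1, 5, 50 and 100 nM it fell, with log2 changes in that order of -0.32, -0.34, -0.34, -0.38, -0.26 and -0.33 (limma, adjusted p = 0.0019, 0.021, 0.00082, 0.00021, 0.026 and 2e-04). At 10 nM the arrays read 2614, 2613 and 2782, all below DMSO, and -0.20 did not pass the test (adjusted p = 0.082). The slope over 0.1 to 100 nM was 0.02 ± 0.01 per 10-fold dose (adjusted p = 0.55). Set against the 0.1, 0.5 and 1 nM arrays in place of DMSO, HERPUD1 changed by -0.05, 0.13, 0.08 and -0.0001 at 5, 10, 50 and 100 nM, none past the threshold, and by -0.52 at 500 nM and -0.26 at 1000 nM. All the calls at the lower doses share the same 3 DMSO arrays. The calls at 0.5 and 50 nM were lost without DMSO replicate 2 (adjusted p = 0.15 and 0.21), without DMSO replicate 3 (0.062 and 0.082) and without any single array of those doses (0.05 to 0.23), while 10 nM gained a call without 500 nM replicate 3 (0.045). The other HERPUD1 probe set, 1569380_a_at, was dim, at 31.5 to 60.8 over all arrays, and was not called at any dose.

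SEL1L, the adaptor that holds the HRD1 ligase together and feeds it substrates, fell to a like level at both doses. Probe set 202061_s_at read 3287, 3036 and 3378 at 500 nM and 3217, 3107 and 3178 at 1000 nM, against 4462, 3910.0 and 4043 in DMSO, with no overlap. The log2 changes were -0.35 ± 0.05 (adjusted p = 6.9e-07) and -0.38 ± 0.05 (adjusted p = 9e-08), and with the covariate -0.43 and -0.48. Both other tested SEL1L probe sets fell at 500 nM (-0.36 and -0.52) and did not pass the test at 1000 nM. The remaining probe set, 202063_s_at, was under the level filter, at 18.7, 18.3 and 18.6 at 500 nM and 20.9, 13.7 and 14.8 at 1000 nM, against 21.4, 24.2 and 33.7 in DMSO.

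EDEM1, a mannosidase-like protein that takes misfolded glycoproteins out of the folding cycle, was the 1 gene of the 10 with no call at any dose. Its single probe set (203279_at) read 1945, 1497 and 2442 at 500 nM, against 1862, 1764 and 1862 in DMSO, so the 500 nM arrays lay on both sides of DMSO. The change was 0.07 ± 0.10 (95% interval -0.14 to 0.28, adjusted p = 0.59), and without 500 nM replicate 3 it was -0.10 (adjusted p = 0.35). Leaving out 500 nM replicate 2 gave 0.25 (adjusted p = 0.016), so the sign changed with a single array. At 1000 nM it read 1666, 1732 and 1786 (-0.08, 95% interval -0.29 to 0.13, adjusted p = 0.51). With the covariate EDEM1 was lower at both doses, with -0.32 at 500 nM (adjusted p = 0.053) and -0.62 at 1000 nM (adjusted p = 0.003).

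XBP1, the factor that IRE1 activates by splicing its mRNA, had the second largest fall of the 10 genes at 500 nM. Probe set 200670_at read 1427, 1358 and 1290.0 at 500 nM and 1638, 1591 and 1621 at 1000 nM, against 2188, 1993 and 2106 in DMSO. Neither dose overlapped with DMSO, and the changes were -0.62 ± 0.08 (adjusted p = 4.4e-07) and -0.37 ± 0.08 (adjusted p = 0.00025). With the covariate the fall at 500 nM was -0.43 (adjusted p = 0.0063), while that at 1000 nM was -0.11 (adjusted p = 0.6). From 0.1 to 100 nM its 20 arrays ran from 1813 to 2556, around the DMSO level. These values do not separate the spliced from the unspliced mRNA. The other XBP1 probe set, 242021_at, was under the level filter, at 15.7, 15.6 and 16.4 at 500 nM, against 38.6, 18.6 and 15.6 in DMSO. XBP1 lies at chr22:28794560-28800569, and the ERSE printed above is in front of its upstream start.

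**Figure D3:**
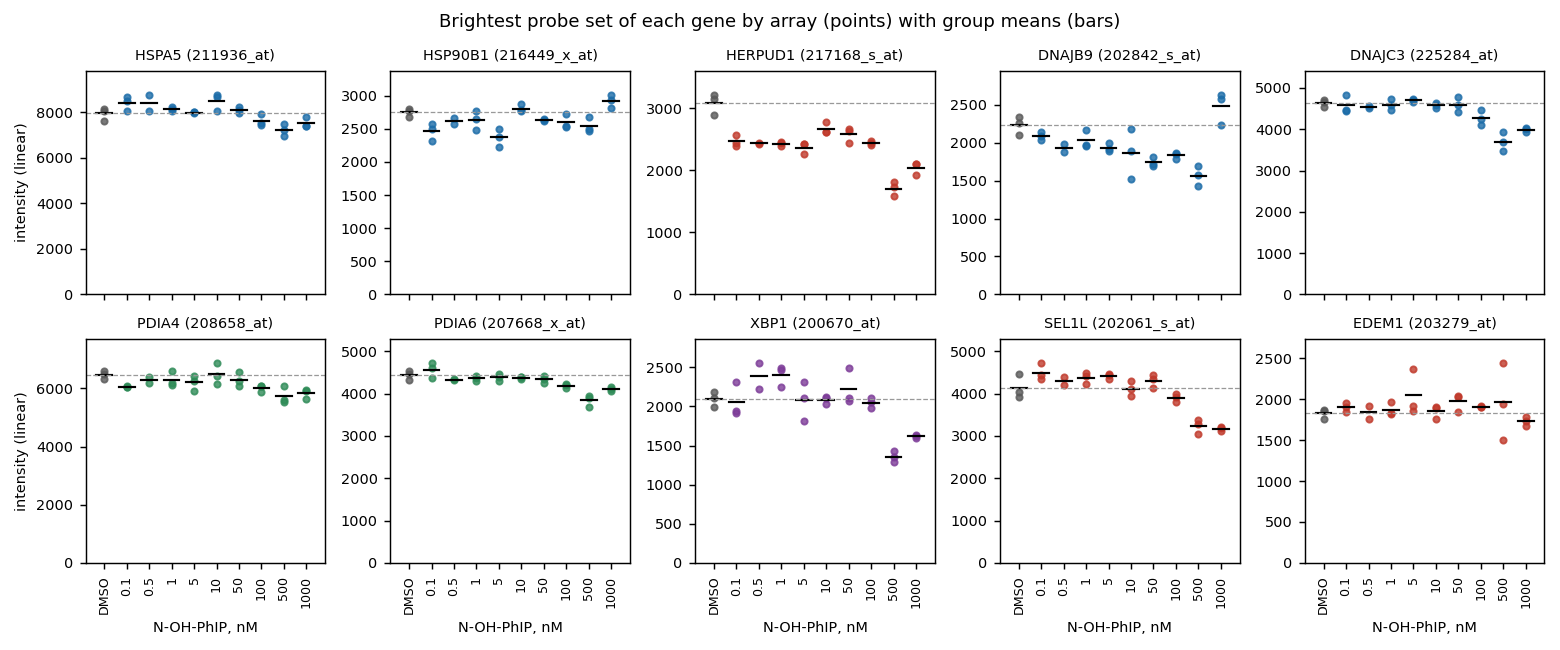
Linear intensity of the brightest probe set of each gene in every array (points) by group from DMSO to 1000 nM, with group means as bars and the DMSO mean as a dashed line. Every HERPUD1 point from 0.1 nM up lies below the DMSO points, and XBP1, SEL1L and DNAJC3 leave the DMSO level mainly at 500 and 1000 nM.

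Below 500 nM few ER genes were called. At 0.1, 0.5, 1, 50 and 100 nM the only member probe set called was that of HERPUD1 described above, at 5 nM it was joined by both HSP90B1 probe sets, and at 10 nM 0 of the 24 were called. Without DMSO replicate 2 only 1 was called lower at 5 nM, and at 100 nM 3 were without 10 nM replicate 2 or replicate 3, and 2 without 500 nM replicate 2 or 3 or 1000 nM replicate 2. Over all tested probe sets the shares called at the 7 doses from 0.1 to 100 nM were, in order, 0.597%, 0.0439%, 0.78%, 1.11%, 0.242%, 0.264% and 2.9%. At an unadjusted p under 0.05 (limma) the member counts in either direction were 8, 6, 6, 8, 3, 4 and 11 of 24 at these doses. The shares over the array were 12.4%, 10.7%, 12.9%, 15.2%, 13.4%, 8.84% and 15.3%. These counts mix signs, with some probe sets higher and others lower than DMSO. Among those higher were SEL1L 202061_s_at (0.12) at 0.1 nM, and HSPA5 230031_at (0.23) and XBP1 200670_at (0.19) at 1 nM. At 100 nM 14 of the 24 probe sets had all 3 arrays below DMSO, against 11.5% of all tested probe sets, and their median log2 change was -0.116, against 0.00687 over all. Over the 26 treated arrays, 11 probe sets had a downward and 2 an upward slope on log10 dose, beside 28.9% and 30.6% of all tested probe sets. The steepest brightest probe sets were XBP1 (-0.14 ± 0.03 per 10-fold dose, adjusted p = 0.00032) and SEL1L (-0.12 ± 0.02, adjusted p = 2.5e-06). When the slope was fitted with the 3′ to 5′ covariate, 0 of the 24 were called in either direction.

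The 2 highest doses differed from each other for most of these genes. Of the 24 probe sets, 17 were higher at 1000 nM than at 500 nM and 0 were lower (limma), beside 17.7% and 25.6% of all tested probe sets. The unadjusted p was under 0.05 for the same number, 17, and for 50.1% of all tested probe sets. The median difference was 0.254 over the 24 probe sets, against -0.035 over all. DNAJB9 differed most among the brightest probe sets (0.66 ± 0.08, adjusted p = 7.2e-07), followed by HERPUD1 (0.26 ± 0.05, adjusted p = 0.00022), XBP1 (0.25 ± 0.08, adjusted p = 0.013) and HSP90B1 (0.20 ± 0.05, adjusted p = 0.0016). DNAJC3 (0.11) and PDIA6 (0.10) were also higher, while HSPA5, PDIA4, SEL1L and EDEM1 did not pass the test. With the covariate 14 were higher and 1 lower, and without 500 nM replicate 3 and 5 nM replicate 3 19 were higher. Without 500 nM replicate 2, 15 were higher and 1 lower. With only the 6 arrays of these doses in the fit, 11 were higher.

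Probe sets of a gene did not always move alike, which was tested on the difference between the brightest and each other probe set of the gene. At 500 nM 2 of the 14 member pairs differed, beside 24.3% of the 10973 pairs over all genes. HERPUD1 217168_s_at fell further than 1569380_a_at (difference -0.57 ± 0.13, adjusted p = 0.0028), and HSPA5 211936_at fell less than 230031_at (0.37 ± 0.10, adjusted p = 0.0089). At 1000 nM 5 of 14 pairs differed, beside 42.1% over all genes. At both doses the share of member pairs that differed was thus not above the share over all genes. The largest was DNAJC3 225284_at against 208499_s_at (-0.87 ± 0.13, adjusted p = 6.6e-06), followed by HERPUD1 (-0.66), DNAJC3 225284_at against 235341_at (-0.44), SEL1L 202061_s_at against 202064_s_at (-0.40) and DNAJB9 202842_s_at against 202843_at (0.23).

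Across the 10 group means, which share the dose steps of the whole array, the brightest probe sets of DNAJC3 and PDIA6 were the most alike (r = 0.9375, n = 10), followed by DNAJC3 and SEL1L (r = 0.9355). HSP90B1 and EDEM1 ran most against each other (r = -0.8487). HSPA5 correlated at 0.8667 with PDIA6 and at 0.1632 with DNAJB9. Among the other 12164 genes, the group means most like those of HSPA5 were SSNA1 (r = 0.9652), TCF19 (0.9651), PLAGL2 (0.9553), SNX11 (0.9525) and PUSL1 (0.9493). Those most like HERPUD1 were FOXJ2 (0.9484), PTER (0.9443), SLC35F2 (0.9436), FAM53A (0.9403) and SPDL1 (0.9392). These values describe 10 points and carry no test.

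Other genes of the same pathway moved in both directions, with each gene taken by its brightest tested probe set. The shares of all tested probe sets to set beside these counts are 22.3% that fell and 23.1% that rose at 500 nM, and 31% and 28.9% at 1000 nM. Of 18 further ER chaperones and folding enzymes, 9 fell and 1 rose at 500 nM, and 7 fell and 1 rose at 1000 nM, with medians of -0.113 and -0.0743. UGGT1, the glucosyltransferase that tags misfolded glycoproteins, fell at both doses (-0.49 and -0.46), as did SIL1, the nucleotide exchange factor of HSPA5 (-0.60 and -0.93), and the oxidase ERO1B (-0.46 and -0.69). HYOU1, a large ER chaperone, fell at 500 nM (-0.38). CRELD2 rose at 1000 nM, at 1733 against 1051 in DMSO (0.72 ± 0.09, adjusted p = 6.7e-08).

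Of 19 further degradation genes, 6 fell and 2 rose at 500 nM, and 7 fell and 5 rose at 1000 nM, with medians of -0.036 and -0.0691. VCP, the ATPase that pulls substrates out of the membrane, rose at both doses (0.56 and 0.57), with 799 at 500 nM and 799.8 at 1000 nM, against 532 in DMSO. The mannosidase-like EDEM2 (-0.38 and -0.55) and the ubiquitin-conjugating enzyme UBE2J1 (-0.38 and -0.44) fell at both. SELENOS fell at 500 nM (-0.28), and the ligase MARCHF6 at 1000 nM (-0.47).

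Of 9 genes of the sensors and their processing, 5 fell and 1 rose at 500 nM, and 4 fell and 0 rose at 1000 nM, with medians of -0.23 and -0.156. ATF6 averaged 254 at 500 nM and 217 at 1000 nM, against 522 in DMSO (-0.996 ± 0.08, adjusted p = 1.2e-10, and -1.21 ± 0.08, adjusted p = 1.2e-12). CREB3L2, a related membrane-bound factor, fell too (-0.62 and -0.87). ERN1, which encodes IRE1 (-0.35), and EIF2AK3, which encodes PERK (-0.34), fell at 500 nM. MBTPS2, the protease that releases ATF6 from its membrane anchor, fell at 1000 nM (-0.70), as did ATF6B (-0.24).

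Among 13 genes of protein entry into the ER, 4 fell and 1 rose at 500 nM, and 5 fell and 3 rose at 1000 nM, with medians of -0.0283 and -0.0242. SEC63 fell at both doses (-0.48 and -0.37), SEC61B (-0.37) and SRPRB (-0.22) fell and SEC62 rose (0.15) at 500 nM. At 1000 nM SPCS1 (-0.22) and SSR1 (-0.17) fell and SSR2 rose (0.18).

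Of 10 genes of the PERK and ATF4 branch, ATF4 among them, 4 fell and 1 rose at 500 nM. At 1000 nM 3 fell and 3 rose, and the medians were -0.0574 and 0.0132. TRIB3, a pseudokinase, averaged 1585 at 500 nM and 1270 at 1000 nM, against 3187 in DMSO, and fell at both doses (-1.01 and -1.32). DDIT3, which encodes CHOP, fell too (-0.44 and -0.58), DDIT4 fell at 1000 nM (-0.45), and ATF3 rose at both (0.77 and 0.59). ATF4 itself stood at -0.05 (adjusted p = 0.13) and 0.04 (adjusted p = 0.19). CHAC1, a glutathione-degrading enzyme, averaged 714 at 500 nM and 1358 at 1000 nM, against 1222 in DMSO. It fell at 500 nM (-0.77, adjusted p = 9.7e-06), did not pass the test at 1000 nM (0.15, adjusted p = 0.31), and was higher at 1000 nM than at 500 nM (0.92 ± 0.12, adjusted p = 1.2e-06).

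**Figure D4:**
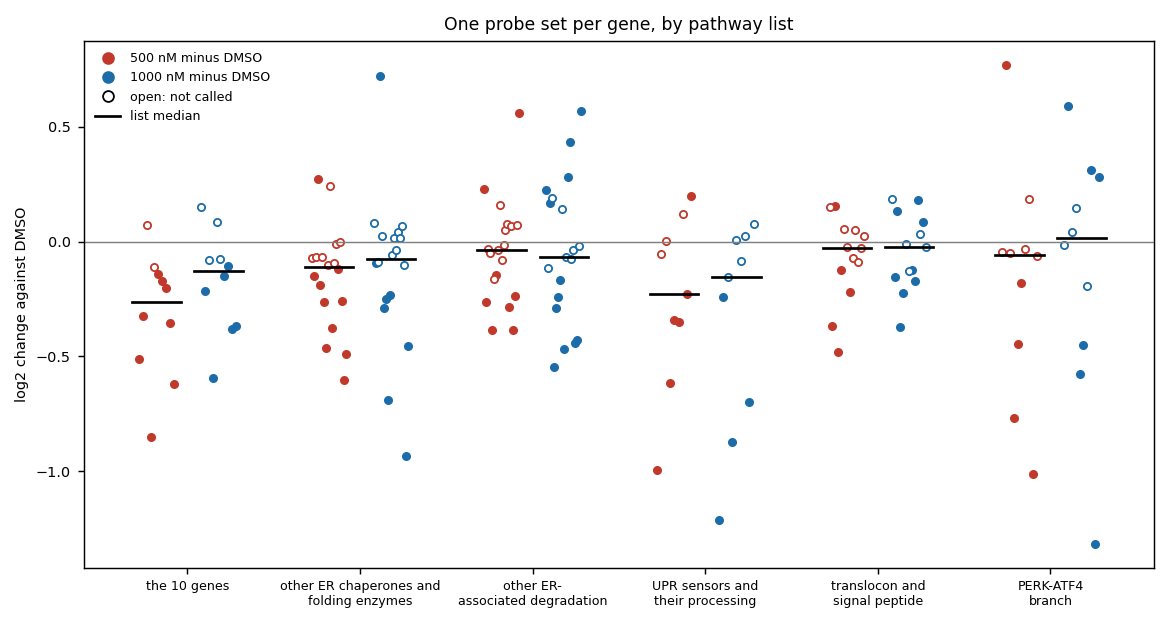
Log2 change against DMSO of the brightest tested probe set of each gene, for the 10 genes and 5 pathway lists, at 500 nM (red) and 1000 nM (blue). Filled points passed the adjusted threshold and bars are list medians, which run from -0.265 (the 10 genes) to -0.0283 (translocon) at 500 nM.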

How the data were processed

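RNA of 29 BEAS-2B cultures was measured on an Affymetrix 3′ expression array after NuGEN Ovation amplification of 40 ng of RNA, per the labels' protocols. The authors deposited intensities on a linear scale, 1 for each probe set, made with GCOS per the submitters' processing notes. How they were normalized is not stated in those notes or the labels, and detection calls were not used. No further normalization was applied. From the deposited intensities, log2(intensity + 16) was computed, and the 27307 non-control probe sets at or above the median level (5.739 on the log2 scale) were tested. Precision is limited by the 2 or 3 arrays of a group.

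In the annotation table of the array 41097 probe sets had 1 symbol, 1801 several and 11721 none. limma 3.58.1 in R 4.3.3 fitted 10 group means, moderated variances along their trend with the mean level, and gave two-sided tests on 19 residual degrees of freedom. Slopes were fitted on log10 dose over the 26 treated arrays. The code was tested on simulated data. The brightest probe set of a gene is its tested probe set of highest mean. From each pathway list up to 4 called genes of largest change per dose were named, plus TRIB3, DDIT3, ATF4 and CHAC1, and the 5 genes most like HSPA5 and HERPUD1. The 10 genes, the lists and the tests were chosen with earlier results of these data known. Same-numbered replicates did not deviate together (r from -0.516 to 0.214 over 26 pairs with DMSO, 3 of them over 0.1), so the numbers were not taken as pairs. Promoter windows of RefSeq (GRCh38.p14) were searched with Python 3.11.15. P-values measure the spread between cultures of a single line.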

Additional observations from a re-analysis of the deposited data

How the results depend on the processing

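The counts below are of the 24 tested member probe sets. The count that fell at 500 nM was 18 and ran from 17 to 20 with single arrays left out, and that which rose was 0 to 1. At 1000 nM 7 to 9 fell and 2 to 3 rose, 12 to 19 were higher and 0 to 1 lower than at 500 nM, and 10 to 11 slopes were downward and 0 to 3 upward. At 0.1 nM 1 to 2 fell and 0 to 1 rose, and those that fell numbered 0 to 1 at 0.5 nM, 1 to 3 for 5 nM, 0 to 1 for 10 nM, 0 to 2 for 50 nM and 1 to 3 for 100 nM. Pairs of probe sets that moved unequally numbered 2 at 500 nM and 4 to 6 at 1000 nM. An offset of 1 left 1 such pair at 500 nM. With quantile normalization 2 fell at 100 nM and 1 slope was upward. With median centring 5 fell at 1000 nM and 0 slopes were upward. With the upper 25% by level, 1 rose at 1000 nM and 1 slope was upward. Without the variance trend 0 fell at 50 nM. With the replicate number as a block 2 fell at 100 nM and 19 at 500 nM, and the numbers are not pairs. In fits of a single dose with DMSO, 0 fell at 0.5 nM, 1 for 5 nM, 2 for 50 nM and 4 for 100 nM. With the 3′ to 5′ covariate, 2 fell at 0.1 nM, 0 at 1 nM, 1 rose at 1000 nM, 1 was lower at 1000 than at 500 nM, and 0 slopes were downward or upward. Without 5 nM replicate 3 and 500 nM replicate 3, 1 fell at 10 nM and 4 at 100 nM. Against the 0.1, 0.5 and 1 nM arrays, 0 fell at 5 and 50 nM, 5 fell at 100 nM and 7 rose at 1000 nM. Of at least 1.5-fold, 0 fell at 0.1, 0.5, 1, 5, 50 and 100 nM, 2 fell at 500 nM and 1 at 1000 nM, 1 rose at 1000 nM, 3 were higher at 1000 than at 500 nM, and 0 slopes reached it in either direction. With DMSO placed below the lowest dose 0 slopes were upward. Chosen after seeing the data were slopes without 1000 nM (0 upward), slopes over 0.1 to 100 nM (2 downward, 0 upward) and the fit of only the 1000 and 500 nM arrays (11 higher).

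Of 1146 single-gene values, 1102 kept direction and side of the threshold, 21 lost and 16 gained a call, and 7 changed sign. EDEM1 at 500 nM was -0.3249 with the covariate and -0.0989 without 500 nM replicate 3 and 5 nM replicate 3 together or without 500 nM replicate 3 alone, and 0.2511 without 500 nM replicate 2. HSPA5 at 1000 nM was 0.0332 with the covariate. HERPUD1 was 0.1282 at 10 nM and 0.0761 at 50 nM against the 0.1, 0.5 and 1 nM arrays, and its slope over 0.1 to 100 nM was 0.0165. The causes were not tested.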
